A study of Mus musculus with 175 samples.

Results

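The 10 genes described here, Cd34, Cd93, Adgrl4, Esam, Emcn, Procr, Eng, Tek, Pecam1 and Angpt1, are best known from endothelium and were measured in blood progenitors of the mouse fetal liver. They are 10 of the 49585 mouse features counted in the series, of which 22262 had a read. The genes were taken by symbol and were chosen by their measured values over the 4 sorted populations, several of them as genes that set MEPs and CMPs apart, so the levels, ratios and counts below are a description and no significance test was run on them. Of the 10 genes, 9 encode proteins of the cell surface. Angpt1 encodes a secreted protein, the ligand of the receptor encoded by Tek, so the name endothelial-like surface genes covers it only as a partner of Tek.

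Single cells were profiled by Smart-Seq2 from E14.5 fetal livers of 2 pooled litters, C57BL/6 crossed with ICR. All cells carried a Runx1 reporter allele over a wild type allele, written Runx1 P1-GFP::P2-hCD4/+ in the sorting protocol and Runx1 P2-GFP::P2-hCD4/+ in the genotype field, in which human CD4 reports the proximal P2 promoter of Runx1. The populations were P2- MEPs (56 cells after filtering, of 57), P2+ MEPs (47 of 48), P2- CMPs (27 of 27) and P2+ CMPs (42 of 43), where MEPs are CD34- and CMPs are CD34+ megakaryocyte-erythroid and common myeloid progenitors, both Lin- Sca1- Kit+ CD16/32low, CD41- and CD150+. The labels call the CMP populations low and high, read here as P2- and P2+, and 1 P2- CMP carries a subtype label that names MEPs. Each population is 1 pool and therefore 1 sample, cells are not replicates, and no interval below covers the spread between animals or pools. All intervals are at 95%. Those of levels and ratios cover the counting of reads only, and reads without molecular identifiers are not independent molecules, and those of shares and medians cover the sampling of cells from 1 pool. Reads on mouse genes were between 295064 and 1540631 per cell, and the median was lowest for P2- MEPs (520540) and highest for P2+ CMPs (804632), with P2+ MEPs (624148) and P2- CMPs (637603) between them. Where 4 values follow each other below with no population named, they stand for P2- MEPs, then P2+ MEPs, then P2- CMPs, then P2+ CMPs.

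Hematopoietic stem and progenitor cells arise in the embryo from endothelium and share many surface proteins with it. CD34 and endomucin, encoded by Emcn, are sialomucins that carry selectin ligands. CD93 is a C-type lectin-like receptor, ADGRL4 an adhesion G protein-coupled receptor, and ESAM and PECAM1 are immunoglobulin superfamily proteins of cell junctions. PROCR binds protein C, endoglin (Eng) is a co-receptor for TGF-beta and BMP ligands, and the receptor tyrosine kinase TIE2 (Tek) binds angiopoietin 1. Several of these proteins are used to sort stem cells, and CD34 was itself a gate here, so Cd34 between MEPs and CMPs was set by the sort.

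In GRCm38 the genes lie on 7 chromosomes. Cd34 (ENSMUSG00000016494.9) lies at chr1:194938819-194961279 on the + strand, Cd93 (ENSMUSG00000027435.8) at chr2:148436640-148443563 on the - strand, Eng (ENSMUSG00000026814.16) at chr2:32646595-32682669 and Procr (ENSMUSG00000027611.12) at chr2:155751117-155755471, both on the + strand. On chromosome 3, Emcn (ENSMUSG00000054690.17) lies at chr3:137341067-137432185 and Adgrl4 (ENSMUSG00000039167.11) at chr3:151437887-151545086, both on the + strand. Tek (ENSMUSG00000006386.15) lies at chr4:94739289-94874976 and Esam (ENSMUSG00000001946.14) at chr9:37528078-37538319, both on the + strand, Pecam1 (ENSMUSG00000020717.19) at chr11:106654217-106750628 and Angpt1 (ENSMUSG00000022309.8) at chr15:42424723-42676977, both on the - strand. Coordinates and overlaps are from a later GENCODE release than the one used for counting. Reads were counted without strand, and exons of another gene overlap 14.2% of the exon bases of Angpt1 (Gm17473), 2.03% of those of Cd34 (Gm16897) and 1.51% of those of Eng (Fpgs), while the other 7 genes had no overlap.

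The sequence upstream of the start was looked at because most of these genes were low in MEPs and high in CMPs together. RefSeq (GRCm38.p6) gave a promoter for 6 of the 10 genes, Cd34, Adgrl4, Emcn, Procr, Eng and Tek, and those of Cd93, Esam, Pecam1 and Angpt1 were not analysed here. The bases from 250 to 21 before the RefSeq start of 4 genes follow, 5′ to 3′ on the + strand, chosen after their values were seen, as 3 genes at or near 0 in P2- MEPs (Cd34, chr1:194938571-194938800, Adgrl4, chr3:151437632-151437861, and Emcn, chr3:137340828-137341057) and 1 gene with reads in all populations (Tek, chr4:94739039-94739268). Capitals mark GGAAG, the core of many ETS factor sites, and TGTGG, the core of RUNX sites, on either strand.
Cd34: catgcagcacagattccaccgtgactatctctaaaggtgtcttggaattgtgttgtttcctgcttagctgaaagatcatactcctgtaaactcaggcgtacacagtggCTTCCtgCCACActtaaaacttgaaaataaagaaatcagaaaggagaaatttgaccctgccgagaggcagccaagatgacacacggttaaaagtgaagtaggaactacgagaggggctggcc
Adgrl4: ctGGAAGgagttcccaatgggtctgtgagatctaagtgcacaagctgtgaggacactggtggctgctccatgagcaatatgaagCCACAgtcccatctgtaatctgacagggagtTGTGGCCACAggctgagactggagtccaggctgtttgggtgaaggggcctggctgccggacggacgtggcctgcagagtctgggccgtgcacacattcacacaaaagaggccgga
Emcn: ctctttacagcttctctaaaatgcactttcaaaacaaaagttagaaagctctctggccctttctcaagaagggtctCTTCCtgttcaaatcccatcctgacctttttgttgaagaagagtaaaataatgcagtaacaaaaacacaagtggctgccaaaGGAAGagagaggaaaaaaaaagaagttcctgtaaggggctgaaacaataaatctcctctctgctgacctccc
Tek: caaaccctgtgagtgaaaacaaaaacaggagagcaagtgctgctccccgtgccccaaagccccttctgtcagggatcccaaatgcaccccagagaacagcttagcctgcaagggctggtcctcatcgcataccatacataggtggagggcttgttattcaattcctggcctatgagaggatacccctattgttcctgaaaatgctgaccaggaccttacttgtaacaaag
GGAAG was found in 5 of the 6 windows (all but that of Tek) and in 60.3% of the 32817 RefSeq promoter windows of this length, which are 230 bases long. TGTGG was found in 4 of the 6 (Cd34, Adgrl4, Procr and Eng) and in 46.7% of all windows. The window of Adgrl4 held 3 matches to TGTGG, of which 2 adjoin on opposite strands. The core of GATA factor sites, GATAA, was in 0 of the 6 and in 21.5% of all windows. CANNTG, the E-box, was in 5 of the 6 (all but Cd34) and in 63.5% of all windows, is not in capitals, and overlapped another motif in Procr only. These matches are letters in a window and were not tied to any binding.

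Progenitor cells differed in how many of the 10 genes they expressed. To compare cells at equal depth, each cell was thinned to 100000 reads on mouse genes, and a gene was counted as read when 1 read remained. P2- MEPs had a median of 0 of the 10 genes read (interval of the median 0 to 1), with a highest value of 3, and 29 of the 56 cells had none. In P2+ MEPs the median was 2 (interval 1 to 2) and the highest value 6, and 9 of the 47 cells had none. P2- CMPs had a median of 5 (interval 4 to 7) and ranged from 1 to 10, and P2+ CMPs had a median of 7 (interval 6 to 8) and ranged from 4 to 9. At least 5 of the genes were read in 0, 2, 17 and 39 cells. At least 8 were read in 5 P2- CMPs and 17 P2+ CMPs and in 0 MEPs. The ranges of P2+ MEPs, P2- CMPs and P2+ CMPs overlap, that of P2- MEPs overlaps those of P2+ MEPs and P2- CMPs, and the P2- CMPs include both the lowest and the highest CMP. Without thinning the medians were 1, 2, 5 and 8.

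**Figure D1:**
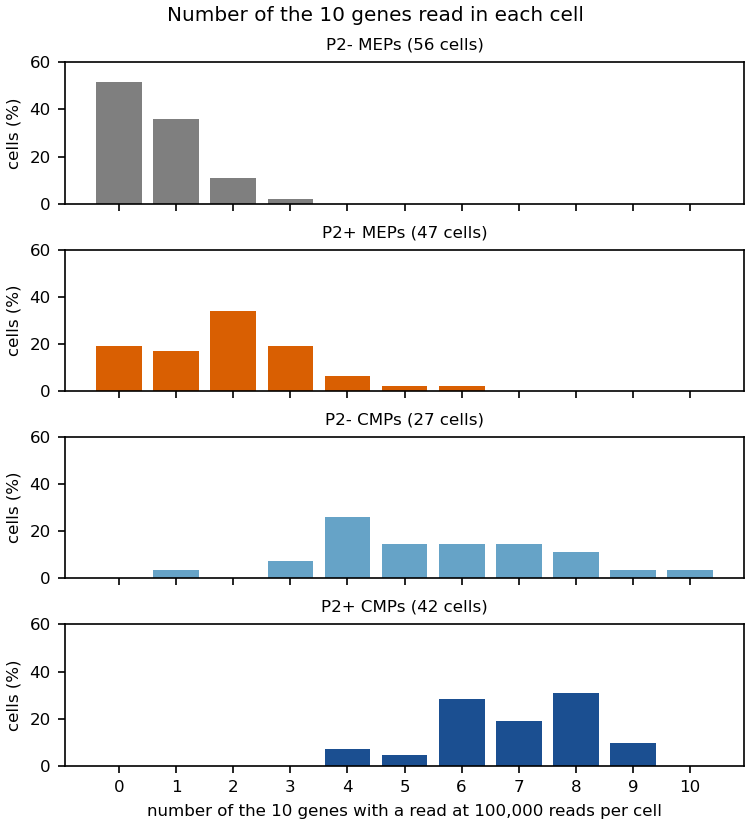
Share of cells (vertical axis, percent) by the number of the 10 genes with a read at 100,000 mouse reads per cell (horizontal axis), for each population. P2- MEPs pile up at 0 and 1, P2+ MEPs at 2, P2- CMPs spread from 1 to 10 and P2+ CMPs lie between 4 and 9.

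Levels are given as pooled CPM, the reads of a gene summed over the cells of a population per 1000000 summed reads on mouse genes. Cd34 stood at 0.033 CPM in P2- MEPs (1 read in 1 cell, interval 0.00083 to 0.18), 13.0 CPM in P2+ MEPs (11.8 to 14.4), 274.3 CPM in P2- CMPs (266.8 to 281.98) and 541 CPM in P2+ CMPs (533 to 548). Per cell, before thinning, P2- CMPs ranged from 0 to 873 CPM with a median of 243.97, and P2+ CMPs from 0 to 1170 CPM with a median of 432. The MEP populations had a median of 0, and the highest P2+ MEP reached 291.2 CPM, within the range of the CMPs. After thinning, Cd34 was read in 1, 6, 23 and 40 cells (1.79%, 12.8%, 85.2% and 95.2%), and before thinning in 1, 7, 23 and 41. The transcript went with the CD34 gate, by which the populations were sorted, with 4 P2- CMPs and 1 P2+ CMP that had no read and 7 P2+ MEPs that had reads. Of the 4 P2- CMPs without a read, 1 is the cell whose subtype field names MEPs. In P2+ MEPs, 3 cells held 70.6% of the Cd34 reads.

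Emcn, the other sialomucin, had 0 reads in both MEP populations, which at 3 reads allows a level of up to 0.098 CPM for the P2- and 0.095 CPM for the P2+ population, and a share of cells with a read of up to 5.36% of the 56 and 6.38% of the 47 cells. These limits cover counting error only and do not limit the share of cells that express the gene. It stood at 25.6 CPM in P2- CMPs (23.4 to 28.1) and 63.7 CPM in P2+ CMPs (61.1 to 66.3). Cells with reads were 6 of 27 P2- CMPs (22.2%, interval 8.62 to 42.3) and 22 of 42 P2+ CMPs (52.4%, interval 36.4 to 68.0) after thinning, and 7 and 22 before. Per cell, P2- CMPs went from 0 to 228.01 CPM with a median of 0, and P2+ CMPs from 0 to 283.2 CPM with a median of 13.8. The ranges over cells overlap almost entirely.

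Cd93 stood at 0.065 CPM in P2- MEPs (2 reads in 2 cells), 12.5 CPM in P2+ MEPs (11.3 to 13.8), 150 CPM in P2- CMPs (144 to 156) and 162 CPM in P2+ CMPs (158 to 166). It was the 1 gene of the 10 read in every P2+ CMP (42 of 42), with 32.2 CPM in the lowest cell, a median of 144 and 463 in the highest. P2- CMPs went from 0 to 690 CPM with a median of 124, and 21 of 27 cells were read after thinning and 22 before. In P2+ MEPs 9 of 47 cells were read after thinning (19.1%) and 12 before, and 3 cells held 73.2% of the reads.

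Adgrl4 had 0 reads in P2- MEPs, 4.40 CPM in P2+ MEPs (3.70 to 5.20), 218.6 CPM in P2- CMPs (211.9 to 225.5) and 347.8 CPM in P2+ CMPs (341.8 to 353.9). All 139 reads of P2+ MEPs came from 4 cells, which ranged from 41.6 to 110 CPM. In P2- CMPs 16 of 27 cells were read (59.3%, interval 38.8 to 77.6), with a median of 368.6 CPM over those cells, and in P2+ CMPs 39 of 42 (92.9%, interval 80.5 to 98.5), with a median of 367.4 CPM over those cells. The medians over the cells that had the transcript lay close together. The same cell counts were found without thinning.

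Esam and Pecam1, both junctional proteins, had unlike patterns. Esam stood at 0.033 CPM in P2- MEPs (1 read), 0.60 CPM in P2+ MEPs, 74.4 CPM in P2- CMPs (70.6 to 78.5) and 129 CPM in P2+ CMPs (125.3 to 133). The 19 Esam reads of P2+ MEPs were all from 1 cell, and without it the population had 0. Esam was read in 9 of 27 P2- CMPs (33.3%, interval 16.5 to 54.0) and in 32 of 42 P2+ CMPs (76.2%, interval 60.5 to 87.9). The highest P2- CMP reached 458 CPM, 1 cell held 34.1% of all Esam reads of that population, and the highest P2+ CMP reached 488 CPM.

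Pecam1, which encodes CD31, was low and spread thinly over all populations, at 4.70 CPM (3.97 to 5.54), 17.4 CPM (16.0 to 18.9), 17.9 CPM (16.0 to 19.9) and 14.9 CPM (13.7 to 16.2). The interval of P2+ MEPs overlaps those of both CMP populations. After thinning it was read in 11, 14, 10 and 12 cells (19.6%, 29.8%, 37.0% and 28.6%), and before thinning in 17, 19, 12 and 20. The median over cells was 0 in every population, and the highest cells reached 42.1, 104, 144 and 130 CPM.

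Procr, like Emcn, had 0 reads in both MEP populations. It stood at 31.3 CPM in P2- CMPs (28.8 to 34.0) and 34.2 CPM in P2+ CMPs (32.4 to 36.2), and was read in 7 of 27 (25.9%, interval 11.1 to 46.3) and 12 of 42 cells (28.6%, interval 15.7 to 44.6), with and without thinning. The cells with reads had a median of 69.4 CPM in P2- CMPs and 76.3 CPM in P2+ CMPs, and the highest reached 261.7 and 327.8. In P2- CMPs 3 cells held 75.4% of the Procr reads, and in P2+ CMPs 3 cells held 59.4%.

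Eng was the member read in the most MEPs, at 14.1 CPM in P2- MEPs (12.8 to 15.5), 35.0 CPM in P2+ MEPs (32.9 to 37.1), 95.1 CPM in P2- CMPs (90.7 to 99.7) and 133 CPM in P2+ CMPs (129 to 136). It was read in 17 of 56, 26 of 47, 21 of 27 and 37 of 42 cells after thinning (30.4%, 55.3%, 77.8% and 88.1%) and in 23, 30, 22 and 37 before. The highest cells had 103, 187, 411 and 405 CPM. No interval of the pooled level overlaps another, and the order of the 4 levels is the order of the shares of cells.

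**Figure D2:**
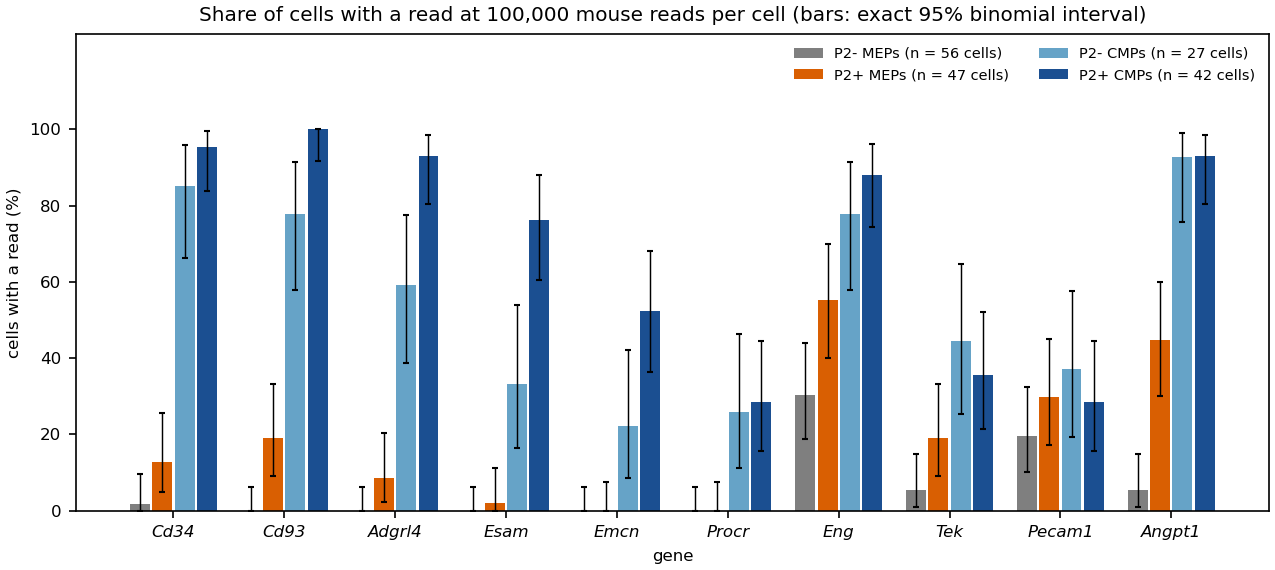
Share of cells with a read (vertical axis, percent) of each of the 10 genes after thinning to 100,000 mouse reads per cell, by population, with exact binomial 95% intervals. Cd34, Cd93, Adgrl4 and Angpt1 were read in 92.9% or more of P2+ CMPs, Emcn and Procr in 0 MEPs, and Pecam1 in 19.6% to 37.0% of every population.

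The receptor and its ligand, Tek and Angpt1, were both read in all 4 populations. Tek stood at 1.57 CPM in P2- MEPs (1.16 to 2.08), 21.4 CPM in P2+ MEPs (19.8 to 23.1), 43.1 CPM in P2- CMPs (40.1 to 46.2) and 31.0 CPM in P2+ CMPs (29.2 to 32.9). It was read in 3, 9, 12 and 15 cells after thinning (5.36%, 19.1%, 44.4% and 35.7%) and in 3, 10, 13 and 18 before, so most cells of every population had none. The highest cells had 51.9, 137, 199 and 333.4 CPM. Angpt1 stood at 0.95 CPM in P2- MEPs (0.63 to 1.36), 21.2 CPM in P2+ MEPs (19.6 to 22.8), 86.4 CPM in P2- CMPs (82.2 to 90.8) and 93.4 CPM in P2+ CMPs (90.3 to 96.6). Cells with Angpt1 numbered 3, 21, 25 and 39 (5.36%, 44.7%, 92.6% and 92.9%) after thinning and 7, 23, 25 and 40 before, as many after thinning as with Tek in P2- MEPs and more in the other populations. In P2+ MEPs Angpt1 was read in 44.7% of cells (interval 30.2 to 59.9) and Cd34, Cd93, Adgrl4 and Esam in 2.13% to 19.1%.

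**Figure D3:**
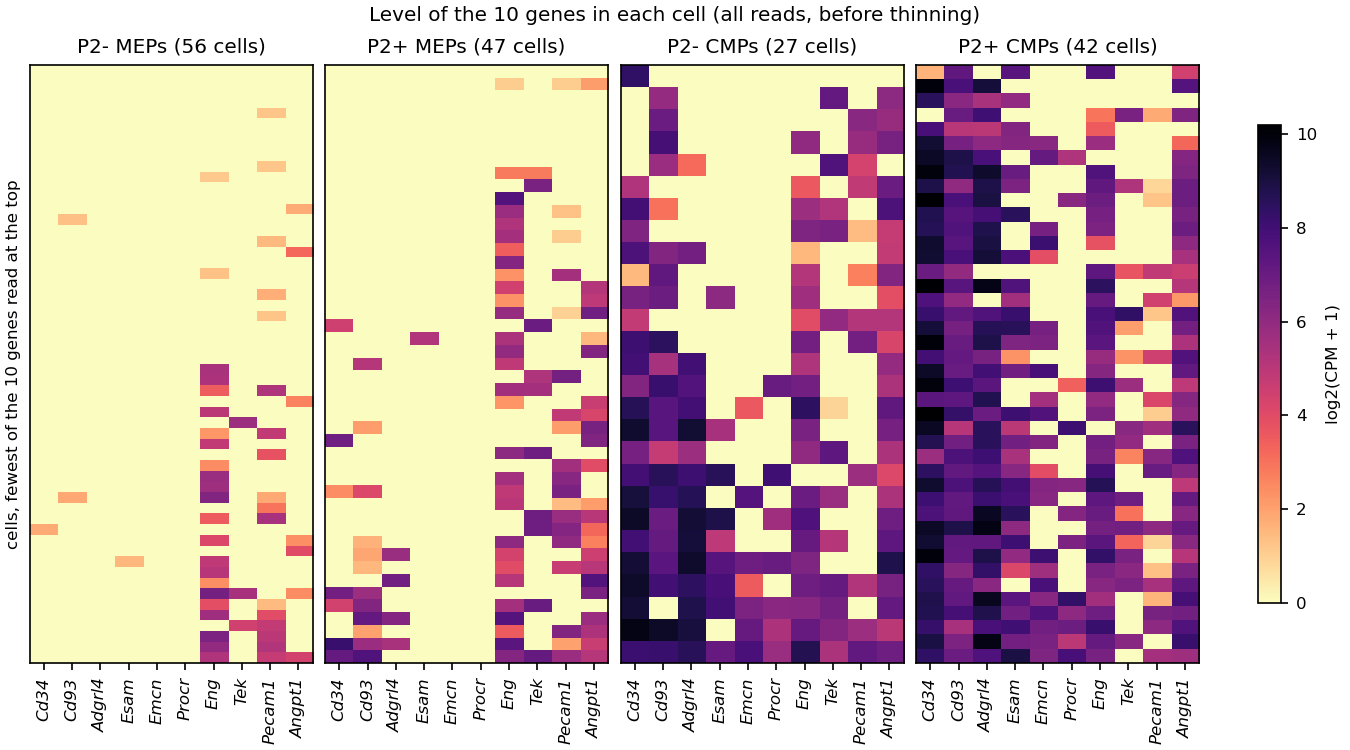
Level of the 10 genes (columns) in each of the 172 cells (rows), as log2(CPM + 1) before thinning, with the cells of each population in order of the number of the 10 genes read after thinning. P2- MEPs are almost empty outside Eng, Pecam1 and Angpt1, P2+ MEPs hold more cells with Angpt1 and Tek, and Esam, Emcn and Procr are filled only in CMPs apart from 1 P2+ MEP with Esam and 1 P2- MEP with a single Esam read.

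Levels of different genes were compared per kilobase of exon. In P2+ CMPs, Adgrl4 (75.9 CPM per kb) and Cd34 (74.2 CPM per kb) were the highest, followed by Esam (45.0), Eng (32.8) and Cd93 (24.2). Angpt1 (17.9 CPM per kb), Procr (16.9), Emcn (11.8) and Tek (6.58) followed, and Pecam1 was the lowest at 2.39 CPM per kb. In P2- CMPs the order began with Adgrl4 (47.7 CPM per kb), Cd34 (37.6) and Esam (26.0), and again ended with Pecam1 (2.87). In P2+ MEPs Eng (8.64 CPM per kb), Tek (4.54) and Angpt1 (4.06) led, and in P2- MEPs Eng (3.49 CPM per kb) and Pecam1 (0.76) led.

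The first comparison the design allows asks how the genes differ with activity of the P2 promoter in MEPs. Genes with at least 10 reads over both populations were measured, and a ratio of pooled CPM of at least 2-fold was counted. Of the 8 measured members 8 were higher in P2+ MEPs and 0 were lower, beside 20.4% higher and 12.5% lower of all 15769 measured genes, and Emcn and Procr had no reads. With spike-in reads as the denominator, 7 members were higher and 0 lower, beside 14.9% higher and 24.8% lower of all measured genes. The median log2 ratio was 4.34 over the 8 members and 0.06 over all genes. Since the members were chosen with these values known, nothing follows from that count. The smallest ratios were those of Eng (log2 ratio 1.31, interval 1.14 to 1.47, and 0.69, under 2-fold, with that denominator) and Pecam1 (1.89, interval 1.62 to 2.16), the 2 genes that P2- MEPs expressed in the most cells. Tek was 13.7-fold higher (log2 ratio 3.77, interval 3.35 to 4.22) and Angpt1 22.3-fold higher (4.48, interval 3.95 to 5.07). With spike-in reads as the denominator the log2 ratios of Tek, Angpt1 and Pecam1 were 3.15, 3.86 and 1.27. Without the cell of highest CPM in each population that of Tek was 4.41, and that of Cd34 was a lower bound of 6.66 against 3 reads. For Adgrl4 the ratio is a bound, 44.9-fold higher against 3 reads (log2 ratio 5.49, interval from 5.17). It was 4.87 with spike-in reads as the denominator and 4.97 without the cell of highest CPM. Those of Cd34 (8.64, interval 6.16 to 13.9), Cd93 (7.58, interval 5.72 to 10.6) and Esam (4.20, interval 1.55 to 9.58) rest on 1, 2 and 1 reads in P2- MEPs. Genes of other lists moved along with the members in this comparison, the summed megakaryocytic list from 124 to 764 CPM and the erythroid list from 2557 to 1340 CPM. Their part in the result was not tested.

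In CMPs, where the same question was asked with CD34+ cells, 1 of the 10 members was at least 2-fold higher in P2+ cells and 0 were lower, beside 17.4% higher and 14.7% lower of 16107 genes. With spike-in reads as the denominator 4 members were higher, beside 22.5% higher and 11.8% lower of all genes, the added genes being Cd34 (log2 ratio 1.31), Esam (1.12) and Adgrl4 (1.0004, at the threshold), and 4 other settings gave 2 members. The median log2 ratio was 0.30 over the members and -0.0020 over all genes. The 1 gene was Emcn (log2 ratio 1.31, interval 1.17 to 1.46), and Cd34 lay just under the threshold (0.98, interval 0.93 to 1.02). Esam (0.79, interval 0.71 to 0.88), Adgrl4 (0.67, interval 0.62 to 0.72) and Eng (0.48, interval 0.40 to 0.56) were next. Without the cell of highest CPM of each gene in each population, Esam passed the threshold as well (1.21). Cd93 (0.11), Angpt1 (0.11) and Procr (0.13, interval -0.014 to 0.27) were nearly level. Tek was lower in P2+ CMPs by less than 2-fold (log2 ratio -0.47, interval -0.61 to -0.34). Of its reads, 3 cells held 54.2% in P2- CMPs and 46.7% in P2+ CMPs. Pecam1 had a log2 ratio of -0.26 (interval -0.46 to -0.061), which was 0.07 when spike-in reads were the denominator.

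Between the compartments, among P2- cells, 10 of the 10 members were at least 2-fold higher in CMPs and 0 were lower, beside 25.8% and 15.1% of 15631 genes. With spike-in reads as the denominator the 10 remained at least 2-fold higher, while the shares of all genes became 20.1% higher and 26.0% lower. Cd34 is one of the 10, and the CD34 gate separates these populations. The median log2 ratio was 8.18 over the members, a lower bound since it lies between the bounds of Emcn and Procr, and 0.09 over all genes. Cd34 (log2 ratio 13.0), Cd93 (11.2) and Esam (11.2) rest on 1, 2 and 1 reads in P2- MEPs. Without the cells of highest CPM, Cd93 was at 12.05, and Cd34 and Esam were lower bounds of 11.4 and 9.02 against 3 reads. Pecam1 had the smallest log2 ratio (1.93, interval 1.64 to 2.22), followed by Eng (2.75, interval 2.60 to 2.90), Tek (4.78, interval 4.36 to 5.23) and Angpt1 (6.51, interval 5.98 to 7.09). Against 3 reads in P2- MEPs, Adgrl4 was 2230-fold higher, Procr 319.4-fold and Emcn 261.5-fold. The intervals of these 3 began at log2 ratios of 10.8, 8.02 and 7.73, and their lowest log2 ratios under the alternatives were 10.6, 7.74 and 7.52. Among P2+ cells 8 of the 10 members were at least 2-fold higher in CMPs and 0 were lower, beside 23.2% and 16.5% of 16572 genes, with a median log2 ratio of 4.53 over the members and 0.02 over all genes. The 2 members below the threshold were Tek (log2 ratio 0.53, interval 0.40 to 0.67) and Pecam1 (-0.22, interval -0.40 to -0.048, and 0.21 with spike-in reads as the denominator). Angpt1 (2.14, interval 2.02 to 2.26) and Eng (1.92, interval 1.83 to 2.02) were the smallest of the 8. Against 3 reads in P2+ MEPs, Emcn was 670-fold and Procr 360-fold higher, with intervals from log2 ratios of 9.09 and 8.19. Under the alternatives these 2 log2 ratios went down to 9.10 and 8.08. Esam (7.74, interval 7.10 to 8.48) rests on the 1 P2+ MEP that had it. Without the cells of highest CPM Esam was a lower bound of 10.3 against 3 reads. The comparisons share populations, so their values stand side by side and were not set against each other.

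**Figure D4:**
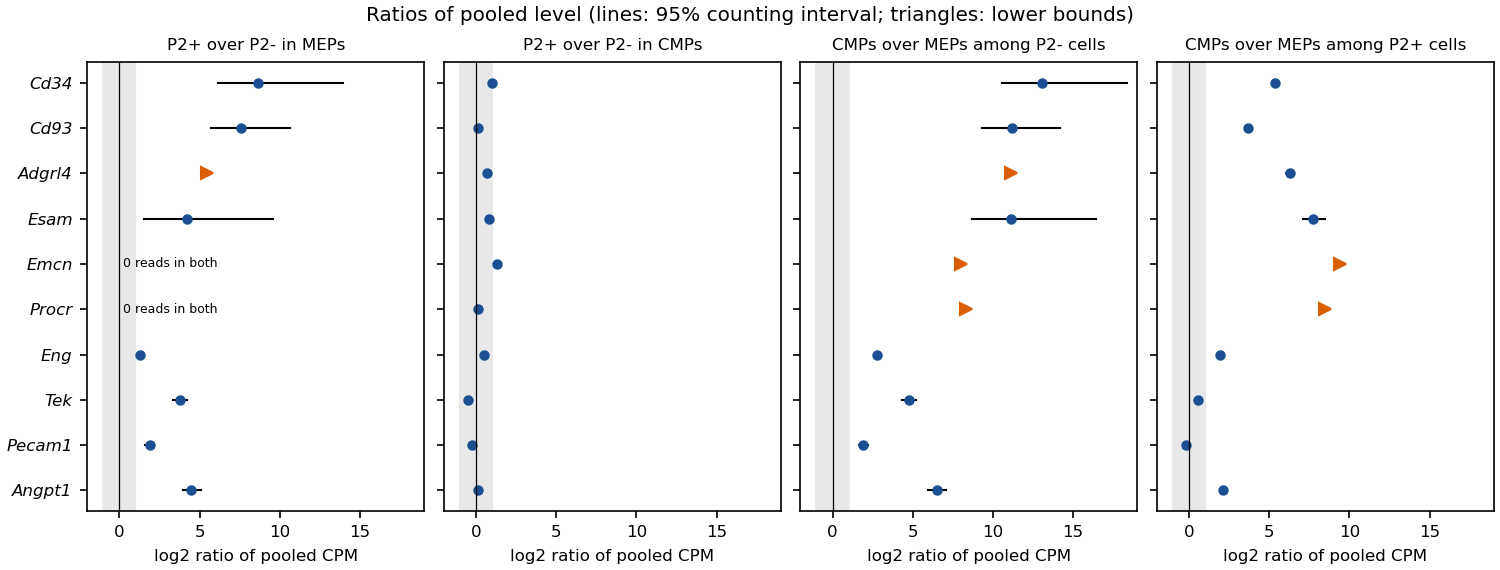
log2 ratio of pooled CPM (horizontal axes) of each gene in the 4 comparisons, with 95% counting intervals as lines and lower bounds against a population with 0 reads as triangles. The grey band is under 2-fold. All measured members lie to the right of the band in the P2+ over P2- MEP and P2- CMP over MEP panels, 1 does in the CMP panel, and Tek and Pecam1 lie within it in the P2+ panel.

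Within a population, the genes were set against each other over cells. The values are Spearman correlations of thinned counts over cells that share a pool, a library protocol and a depth, for pairs in which both genes were read in at least 5 cells, and they carry no test. In the 27 P2- CMPs the median over 45 pairs was 0.23, and 38 pairs were above 0. The highest was Cd34 with Adgrl4 (rho 0.77), and 15 of the 16 P2- CMPs with Adgrl4 also had Cd34. Adgrl4 also went with Procr (rho 0.57), Esam (0.57), Emcn (0.56) and Eng (0.54), and all 7 cells with Procr and all 6 with Emcn had Adgrl4. Pecam1 had a rho of -0.16 with Cd34, -0.17 with Adgrl4 and 0.40 with Cd93, which was read in 8 of the 10 cells with Pecam1. Cd93 had a rho of 0.30 with Cd34 and -0.17 with Tek. In the 42 P2+ CMPs the median over 45 pairs was 0.04 and 28 pairs were above 0, the highest was again Cd34 with Adgrl4 (0.35), and the lowest was Cd34 with Pecam1 (-0.39).

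The genes were also counted together within cells. At least 1 of Cd34, Cd93 and Adgrl4 was read in 1 of 56, 12 of 47, 27 of 27 and 42 of 42 cells, and all 3 of them in 0, 1, 14 and 38. At least 1 of Esam, Emcn and Procr was read in 0, 1, 13 and 39 cells, and all 3 in 0, 0, 3 and 6. Of the 13 P2- CMPs with Esam, Emcn or Procr, 13 also had Cd34 and 12 also had Adgrl4. In all P2- CMPs Cd34 was read in 23 of 27 and Adgrl4 in 16. Of the P2+ CMPs with Esam, Emcn or Procr, 38 of 39 had Cd34 and 37 had Adgrl4, near the 40 and 39 of all 42 cells. Of the P2+ MEPs, 4 of the 6 with Cd34 also had Cd93 (rho 0.50 over 47 cells), 4 of the 4 with Adgrl4 also had Angpt1, and 0 of those 4 had Tek. Reads of both Tek and Angpt1, the receptor and the ligand, were found together in 0, 3, 11 and 15 cells. All 15 P2+ CMPs with Tek and 11 of the 12 P2- CMPs with Tek had Angpt1, as did 3 of the 9 P2+ MEPs with Tek. Angpt1 was read in 39 of all 42 P2+ CMPs, 25 of 27 P2- CMPs and 21 of 47 P2+ MEPs, and its rho with Tek was 0.13, 0.05 and -0.14.

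Partners of the members were taken from lists, and of each list the 4 genes of highest CPM, each taken in the population where it was highest, are named. By the mean over the 4 populations Smad5 (14.0, 17.9, 47.9 and 40.9 CPM) would stand in place of Id3 and S1pr1 (2.84, 20.6, 28.5 and 29.6 CPM) in place of F2rl2. Counts are given in the order P2+ over P2- in MEPs, P2+ over P2- in CMPs, CMPs over MEPs among P2- cells, and CMPs over MEPs among P2+ cells. Of 12 genes of the Tie receptor pathway, 4 of 6 measured, 2 of 9, 7 of 8 and 4 of 9 were at least 2-fold higher, and 0, 1, 0 and 2 lower. Tie1, the orphan receptor that pairs with TIE2, stood at 0.033, 5.51, 70.4 and 63.3 CPM, and Dok2, a docking protein that binds TIE2, at 18.6, 106, 128 and 202 CPM. Foxo3, a transcription factor restrained by signalling from the receptor through AKT, was at 56.4, 69.6, 113 and 66.3 CPM, and Foxo1 at 5.85, 11.8, 5.73 and 13.7 CPM. Tie1 thus showed a wide gap between MEPs and CMPs, and was read in 15 of 27 P2- CMPs and 36 of 42 P2+ CMPs. Angpt2, the second ligand of TIE2, was named after its values were seen, at 0.42, 4.02, 0.98 and 1.46 CPM.

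Of 13 genes of TGF-beta and BMP signalling around endoglin, 4 of 11, 3 of 11, 8 of 11 and 4 of 11 were higher and 2, 2, 1 and 1 lower. Tgfbr3, betaglycan, the relative of endoglin, stood at 64.0, 138, 55.0 and 55.4 CPM, highest in P2+ MEPs, where Eng was not. Id1, a target of BMP signalling, was at 5.98, 19.98, 36.4 and 83.6 CPM, and Id3, another, at 0.33, 0, 0 and 58.1 CPM, in 9 of 42 P2+ CMPs. Tgfbr2, the type II receptor, was at 6.08, 12.1, 48.0 and 19.6 CPM. Of 10 genes around protein C and thrombin, the ligands and neighbours of PROCR, 5 of 7, 3 of 7, 6 of 7 and 1 of 7 were higher and 0 were lower in each comparison. F2r, the thrombin receptor PAR1, was at 38.2, 167, 135 and 143 CPM, Tfpi, an inhibitor of the tissue factor pathway, at 39.0, 40.5, 48.7 and 77.7 CPM, and F2rl3, PAR4, at 4.21, 37.2, 29.1 and 61.1 CPM. F2rl2, PAR3, was at 0, 35.3, 6.22 and 32.0 CPM. F2r and F2rl2 were highest in P2+ MEPs, where Procr had no reads.

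Of 9 genes of the CD34 family and selectin binding, 1 of 5, 0 of 7, 2 of 7 and 1 of 6 were higher and 0, 1, 0 and 0 lower. Cd164, a sialomucin, was at 175, 130, 243.6 and 221.97 CPM, Selplg, which encodes the P-selectin ligand PSGL-1, at 37.3, 57.2, 61.5 and 73.6 CPM, and the adaptor Crkl at 24.2, 24.99, 38.1 and 21.8 CPM. Podxl, a relative of Cd34, was at 59.96, 57.6, 33.5 and 36.1 CPM, higher in MEPs than in CMPs, whereas Cd34 was higher in CMPs. Of 8 genes of the CD93 family and its ligands, 2 of 5, 0 of 6, 5 of 7 and 2 of 5 were higher and 1, 1, 1 and 0 lower. C1qbp, a mitochondrial protein that binds C1q, was at 1085, 845, 614 and 626 CPM, Gipc1, which binds the tail of CD93, at 42.8, 79.8, 92.4 and 131 CPM, Mmrn1, multimerin 1, at 0.033, 21.6, 40.7 and 50.5 CPM, and Dag1, dystroglycan, at 6.21, 18.4, 29.7 and 33.5 CPM. Mmrn2, an endothelial ligand of CD93, had 0 reads in all populations.

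Of 13 genes of junctional adhesion molecules and PECAM1 partners, 4 of 8, 2 of 10, 7 of 8 and 6 of 9 were higher and 1, 2, 0 and 0 lower. Ptpn6, the phosphatase SHP-1, was at 81.5, 99.4, 190 and 239.3 CPM and Ptpn11, SHP-2, at 48.7, 63.7, 50.2 and 33.9 CPM, and both bind the tail of PECAM1. The junctional proteins Jam3 (1.27, 7.44, 20.7 and 35.4 CPM) and F11r (0.033, 8.49, 16.1 and 18.7 CPM) followed the order of Esam rather than that of Pecam1. Of 11 adhesion G protein-coupled receptors, 4 of 8, 2 of 8, 3 of 8 and 3 of 8 were higher and 1, 1, 2 and 0 lower. Adgrg1, GPR56, was read in all 172 cells, at 129, 330, 493 and 527 CPM, and Adgrg3 was at 2.78, 24.8, 35.3 and 69.8 CPM. Adgrl1, a latrophilin like Adgrl4, was at 16.9, 24.96, 13.5 and 24.5 CPM, and Adgra3 at 11.5, 12.6, 17.999 and 18.1 CPM, so Adgrl4 differed far more between the populations than Adgrl1.

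The label endothelial-like was checked against 23 markers of endothelial cells, of which 3 (Tie1, Clec14a and Mmrn2) also stand in the lists above. Flt1, Sox17, Sox7, Mmrn2, Aplnr and Bmx had 0 reads in all 4 populations. Cdh5, which encodes VE-cadherin, had 0, 2, 9 and 27 reads, Kdr, which encodes VEGFR2, 0, 43, 25 and 65, and each was read in at most 1 thinned cell of a population. The fetal liver sinusoidal markers Lyve1, Stab1 and Stab2 had at most 49 reads in a population, Cldn5 at most 5, Flt4 at most 9 and Nos3 at most 38. Plvap was nearly level over the populations, at 8.04, 8.46, 7.74 and 10.3 CPM, and was read in 15, 9, 4 and 8 thinned cells. Vwf stood at 0.033, 3.61, 15.2 and 0.77 CPM. Other genes of the list were read in CMPs, among them Tie1 (in 36 of 42 P2+ CMPs, with the levels given above), Egfl7, read in MEPs as well (86.3, 84.8, 199 and 238.8 CPM), Ecscr (0, 1.08, 34.6 and 35.8 CPM), Sox18 (0, 0, 12.1 and 41.7 CPM), Ramp2 (0, 0, 27.8 and 13.9 CPM), Clec14a (0, 0, 29.2 and 22.1 CPM) and Robo4 (0, 0, 13.7 and 7.10 CPM). Of the list 10 of 11 measured genes were at least 2-fold higher in CMPs among P2- cells and 0 lower, 9 of 13 among P2+ cells and 1 lower, 4 of 8 in P2+ over P2- MEPs and 1 lower, and 2 of 13 in P2+ over P2- CMPs and 2 lower. The summed level of the list was 94.9, 105, 414 and 438 CPM, and 15, 13, 9 and 8 of its genes were at 0. Over thinned cells the summed level of the list started at 0, 0, 0 and 50 CPM and reached 240, 310, 1700 and 2060 CPM.

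**Figure D5:**
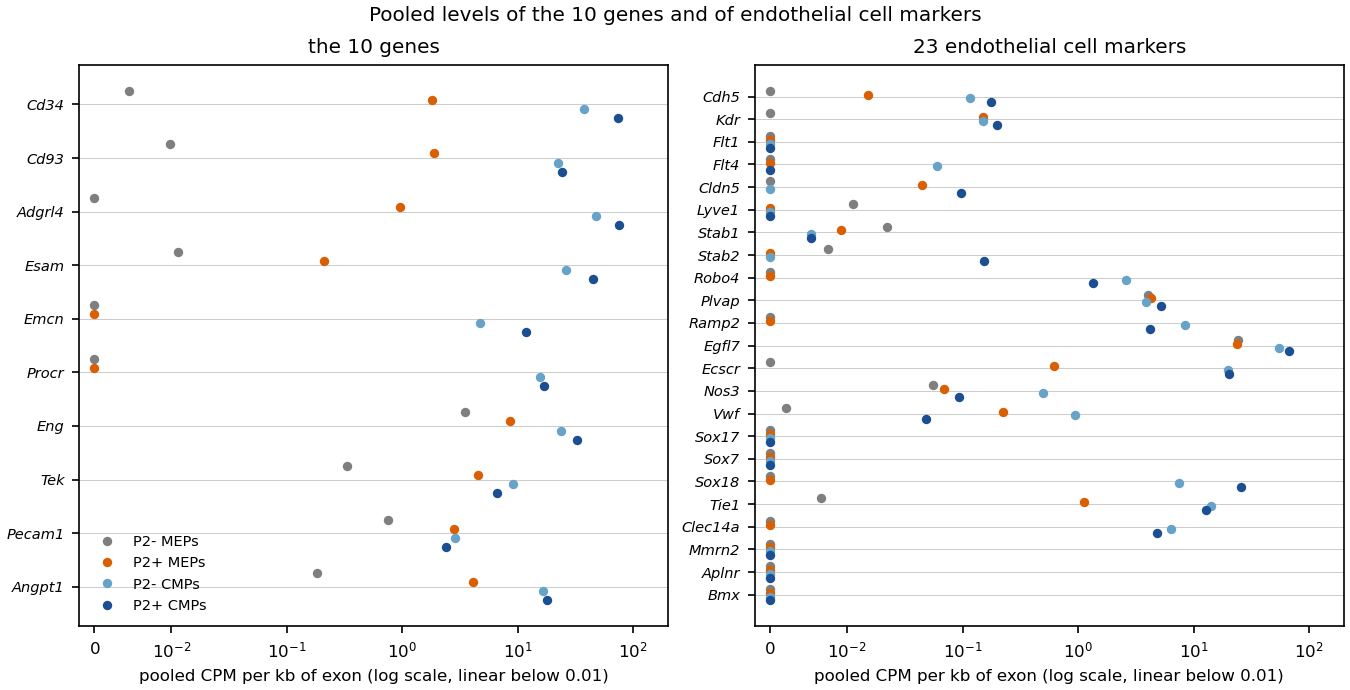
Pooled CPM per kb of exon (log axes, linear below 0.01) of the 10 genes on the left and of 23 endothelial cell markers on the right, by population. Flt1, Sox17, Sox7, Mmrn2, Aplnr and Bmx lie at 0 in all populations, while Egfl7, Tie1, Ecscr, Sox18, Ramp2, Clec14a and Plvap reach the range of the members in CMPs.

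Markers of other cells that a fetal liver sort could hold were summed as well. The 10 macrophage genes summed to 1.27, 10.2, 6.22 and 6.27 CPM, with C1qa, C1qb, C1qc, Adgre1, Cd163 and Timd4 at 0 in all populations, and 8, 7, 8 and 7 of the list at 0, and the highest thinned cells held 40, 140, 70 and 80 CPM. The 10 hepatocyte genes summed to 12.4, 14.2, 38.5 and 28.0 CPM, with Ahsg and Serpina1b at 0 in all populations and 4, 3, 5 and 6 of the list at 0, and the highest thinned cells held 150, 140, 340 and 210 CPM. The hepatocyte sum of P2- CMPs lay above the levels of Procr, Emcn and Pecam1 in that population, and Hnf4a stood at 0.46, 3.42, 13.6 and 14.4 CPM. Genes of the blood lineages differed between the populations together with the members. The 21 stem and multipotent progenitor genes summed to 1013, 1808, 2116 and 2089 CPM (13 of 18 higher in P2+ MEPs, 4 of 21 in P2+ CMPs, 15 of 20 in P2- CMPs over MEPs and 12 of 21 in P2+ CMPs over MEPs, with 0, 0, 0 and 3 lower). The 18 erythroid genes summed to 2557, 1340, 599 and 258.3 CPM (2 of 18, 2 of 15, 1 of 18 and 1 of 16 higher, and 11, 7, 16 and 15 lower). The 15 megakaryocytic genes summed to 124, 764, 664 and 787 CPM (12 of 12, 4 of 13, 8 of 11 and 3 of 13 higher, and 0, 1, 1 and 5 lower). The 14 granulocyte and monocyte genes summed to 16.4, 75.9, 481 and 752 CPM (5 of 6, 3 of 11, 9 of 9 and 9 of 11 higher, and 0, 2, 0 and 2 lower). The part of these lineages in the results on the 10 genes was not tested. Of the sort markers, Slamf1, which encodes CD150, was at 8.23, 97.2, 37.2 and 69.3 CPM, and the 8 sort marker genes, Cd34 among them, summed to 358.5, 538, 805 and 1085 CPM.

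Within each population the number of members read per cell was set against these lists over thinned cells, as a description. In P2- CMPs cells with more members had more endothelial list reads (rho 0.71), more granulocyte and monocyte reads (0.60), more stem and progenitor reads (0.57) and more megakaryocytic reads (0.46), and fewer erythroid reads (-0.33). In P2+ CMPs the values were 0.54 for the stem and progenitor list, 0.32 for the endothelial list, 0.23 for the erythroid list, 0.18 for the megakaryocytic list and -0.064 for the granulocyte and monocyte list. In P2+ MEPs they were 0.30 for the stem and progenitor list, 0.26 for the megakaryocytic list, 0.17 for the granulocyte and monocyte list, -0.22 for the endothelial list and -0.37 for the erythroid list. In P2- MEPs all 5 lay between -0.11 and 0.20. The depth of a cell before thinning had a rho between -0.20 and 0.16 with the number of members in the 4 populations. The number of all genes read after thinning had a rho of 0.30, 0.12, -0.0050 and 0.02, and in P2- MEPs this was above the value of every list.

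The genes most like the members were those with the highest Spearman correlation with the number of members read over all 172 cells, among 8033 genes read in at least 25% of cells. Of the 10 highest, 8 are named here, Coro1a (rho 0.80), Rn18s-rs5 (0.77), Tmem176b (0.77), Mycn (0.77), Fxyd5 (0.76), Ebi3 (0.76), Lst1 (0.74) and Gmfg (0.74). Coro1a encodes an actin-binding protein of leukocytes. The populations differ in both quantities, and the values within a population were lower. For Coro1a the 4 values of rho were -0.069, 0.31, 0.64 and 0.08. Mycn, a transcription factor of stem cells and growth, had no reads in P2- MEPs, and its rho was 0.086, 0.68 and 0.49 over the other populations in the same order, where it stood at 10.0, 103 and 185 CPM.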

How the data were processed

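Single cells of 4 sorted populations were profiled by Smart-Seq2 with ERCC spike-in RNA. The authors used Trimmomatic 0.36 for trimming and STAR 2.4.2a for alignment to GRCm38 and ERCC sequences, counted reads on GENCODE exons with HTSeq 0.6.1p1 without strand, and deposited raw counts per gene and cell, not normalized. The share of unmapped reads was deposited as a percent per cell. Reads ambiguous between genes (25.6% of uniquely mapped reads) and on no gene (7.40%) stayed out of all totals.

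Cells with at least 250000 reads, at most 25% unmapped and at most 15% ERCC reads were kept (172 of 175), as in the study's methods. No doublet caller was run on these single-sorted cells. Counts were summed per population to CPM, with exact Poisson, conditional binomial (ratios) and Clopper-Pearson (shares) intervals. A population at 0 was set to 3 reads over the population. Shares and numbers of genes per cell used cells thinned to 100000 mouse reads, which left out 0 cells. With 1 sample per population, no test and no p-value was possible. Python 3.11.15, scipy 1.17.1, R 4.3.3, edgeR 4.0.16 and DESeq2 1.42.0 (normalization factors only, as alternatives) were used, and the ratio and interval steps were checked on simulated data. The members, gene lists and comparisons were chosen with earlier results of these data known. Named genes are the 10 members, the 4 highest of each partner list, the marker genes and the 10 genes most like the members, of which 2 are not reported here, with exceptions stated. Alternatives were other denominators (TMM, DESeq2, ERCC, without mitochondrial genes and Rn18s-rs5), equal weight per cell, every deposited cell, cells left out, other read minima and other thinning depths.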

Additional observations from a re-analysis of the deposited data

Results flagged for a closer look

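For 2 of the 10 genes the ratio of P2+ over P2- pointed in opposite directions in MEPs and CMPs, with counting intervals on either side of 0. The log2 ratio of Tek was 3.77 in MEPs and -0.47 in CMPs. That of Pecam1 was 1.89 in MEPs and -0.26 in CMPs. The same count was not made over all genes, so nothing follows from 2 of 10. In P2- and P2+ CMPs, 3 cells held 54.2% and 46.7% of the Tek reads and 53.4% and 52.8% of the Pecam1 reads. The counting intervals do not cover this spread between cells. The difference between the compartments was not tested, since each population is 1 sample. Under the alternatives the ratio of Tek ran from 3.15 to 4.41 in MEPs and from -0.58 to -0.14 in CMPs, and that of Pecam1 from 1.27 to 1.92 in MEPs and from -0.49 to 0.07 in CMPs, so the opposite direction of Pecam1 is lost with spike-in reads as the denominator.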

How the results depend on the processing

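The number of members at least 2-fold higher was 7 or 8 in P2+ over P2- MEPs, 10 in CMPs over MEPs among P2- cells and 8 among P2+ cells under every alternative run, and 0 were lower. Where it was 7, Eng fell under 2-fold with ERCC reads (log2 ratio 0.69), and Esam was not measured without the cell of highest CPM or with a minimum of 100 reads. In P2+ over P2- CMPs it was 2 in place of 1 with TMM factors, with DESeq2 size factors, without mitochondrial genes and Rn18s-rs5 in the denominator and without the cell of highest CPM, and 4 with ERCC reads, with Cd34 or Esam as the added gene and Adgrl4 also under ERCC. Every recomputed ratio kept its sign except 2 of Pecam1, P2+ over P2- in CMPs (0.07) and CMPs over MEPs among P2+ cells (0.21), under ERCC reads. The ERCC denominator moved the median log2 ratio of all genes by -0.62 in MEPs, 0.33 in CMPs, -0.51 among P2- cells and 0.43 among P2+ cells. With it the shares of all genes at least 2-fold higher and lower became 14.9% and 24.8% in MEPs, 22.5% and 11.8% in CMPs, 20.1% and 26.0% among P2- cells and 30.8% and 12.1% among P2+ cells. The median among P2- cells moved by -0.10 with TMM factors and by -0.19 without the cell of highest CPM, and that in CMPs by 0.11 without it. Leaving out the highest cells moved 6 ratios by over 1.5 times, with log2 ratios of 4.41 for Tek in MEPs and 12.05 for Cd93 among P2- cells (reported 3.77 and 11.2), and with lower bounds against 3 reads, in place of values on 1 read (19 for the last), of 6.66 for Cd34 in MEPs, 11.4 for Cd34 and 9.02 for Esam among P2- cells and 10.3 for Esam among P2+ cells (reported 8.64, 13.0, 11.2 and 7.74). The medians of members read per cell stayed within their intervals. Genes with fewer than 3 reads in P2- MEPs have ratios that depth limits. No paired analysis was possible because each population is 1 sample and no test was run.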

Other observations

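Single cells at the ends of the range are given here as values, named after they were seen. Of the 27 P2- CMPs 1 cell had all 10 genes read, with Eng at 411 CPM, Adgrl4 at 385 CPM, Cd93 at 290 CPM, Cd34 at 282.3 CPM, Emcn at 228.01 CPM, Pecam1 at 144 CPM, Esam at 135 CPM, Angpt1 at 116 CPM, Procr at 54.3 CPM and Tek at 40.3 CPM. Another P2- CMP had Cd34 at 336.1 CPM and none of the other 9 genes. The P2+ MEP with the most members, 6 of 10, had Cd93 at 194 CPM, Tek at 137 CPM, Cd34 at 135 CPM, Eng at 78.0 CPM, Pecam1 at 52.5 CPM and Angpt1 at 33.4 CPM.

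At the other end of the likeness scale, the genes with the most negative correlation with the number of members read over the 172 cells were Mt1 (rho -0.81), Klf1 (-0.78), Cpox (-0.77), Blvrb (-0.76) and Alad (-0.73). Klf1 encodes an erythroid transcription factor, Cpox and Alad encode enzymes of heme synthesis, Blvrb encodes biliverdin reductase B and Mt1 a metallothionein. Within P2- CMPs the rho of Klf1 was -0.77 and that of Mt1 -0.77, and within P2- MEPs they were -0.0061 and 0.056.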
